A study of Caenorhabditis elegans with 4 samples.

Results

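In fed larvae of the L1 stage of Caenorhabditis elegans, chromatin was precipitated through a GFP tag on the transcription factor FOS-1, and 1085 of the 6095 regions that were called lay on chromosome X. These 1085 X regions, or peaks, are described here and set against the 5010 peaks on the 5 autosomes. They were taken by chromosome name alone from the peak list that the authors called on the reads of both ChIP libraries together (the combined list). The X lines of the lists called on single ChIP libraries, with 760 peaks for replicate 1 and 386 for replicate 2, served to see which X peaks recurred. The autosomal lines of those lists numbered 3272 and 1601. Positions are those of the WS220 build of WormBase, and no peak was assigned to a gene.

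FOS-1 belongs to the Fos family, leucine zipper proteins that bind DNA in pairs, often with a Jun partner, and switch genes on or off. In the worm it is best known for the invasion of the anchor cell, which opens the way from uterus to vulva later in larval life. Hermaphrodites carry a pair of X chromosomes, on which the dosage compensation complex lowers transcription. The autosomes have gene-dense centres flanked by arms that recombine more, a division that is less marked on X.

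There were 2 FOS-1::GFP ChIP libraries and 2 libraries of input DNA, chromatin from the same preparation that had not been precipitated. All came from hermaphrodites of strain OP304, grown at 20 °C and fixed in 2% formaldehyde. Their genotype is unc119(ed3) with the transgene wgIs304, which holds fos-1::TY1 EGFP FLAG and a copy of unc119, so the input animals carried the tagged factor too. The transgene entered the genome by bombardment and the labels list no allele of the worm's own fos-1. Whole larvae were used, so peaks of different cell types cannot be told apart. The endogenous fos-1 lies on chromosome V and unc-119 on III, so neither gene of the transgene belongs to X. The ChIP libraries gave 3763795 (replicate 1) and 2961912 (replicate 2) uniquely mapped reads, and the input libraries 2762470 and 2799514. The labels do not say whether the replicates were separate cultures, so differences between the lists may be technical. Absence from a list means that no peak was called there, not that FOS-1 was absent from the site.

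X carried FOS-1 peaks at close to the mean density of the autosomes. In the combined list X had 61.5 peaks per Mb and the autosomes 60.7, a ratio of 1.01, with single autosomes between 38.9 (V) and 75.7 (III). The replicate 1 list had 43.1 peaks per Mb on X and 39.7 on the autosomes, and the replicate 2 list 21.9 and 19.4. X thus lay inside the range of single autosomes in every list. Combined peaks covered 425 kb of X, or 2.41% of its length, against 2.26% of the autosomes. Lengths here run to the last peak of a chromosome in any list.

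Along X the peaks were spread more evenly than along any autosome. The 17 whole 1-Mb bins of X held 61.9 ± 12.7 combined peaks (SD over bins), from 44 to 88. From the left end, bins 1 to 6 held 45, 50, 61, 48, 64 and 58 combined peaks. Bins 7 to 12 held 67, 70, 69, 44, 47 and 55, and bins 13 to 17 held 77, 88, 73, 75 and 62. The last 0.641 Mb, a part bin, held 32. No bin of X was empty or nearly so, and the fullest held 2-fold as many peaks as the sparsest. On the autosomes the whole bins ran from 8 to 122 combined peaks. The ratio of the variance to the mean of the bin counts, which is 1 for counts scattered independently at one rate, was 2.60 on X and between 4.11 (IV) and 10.5 (V) on the autosomes. It was 1.47 on X against 3.19 to 9.92 on the autosomes in the replicate 1 list, and 1.42 against 1.57 to 3.98 in the replicate 2 list. X had the lowest ratio of the 6 chromosomes in all 3 lists, and in the combined list also with bins of 0.5 Mb (2.73 on X, 2.75 on IV) and 2 Mb (4.73 and 4.97), where the margin to IV was small. The coefficient of variation of the bins was also lowest on X, though the order of the autosomes differed between the 2 measures in the replicate lists. It was 20.5% on X and at least 26.2% on each autosome in the combined list. In replicate 1 it was 18.4% against at least 26.0%, and in replicate 2 25.4% against at least 25.9%. In replicate 2 the margin was therefore small, and there the ratio of fullest to sparsest bin was 2.77 on X and lower, 2.47, on III. These are descriptions of single lists, with no test.

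**Figure D1:**
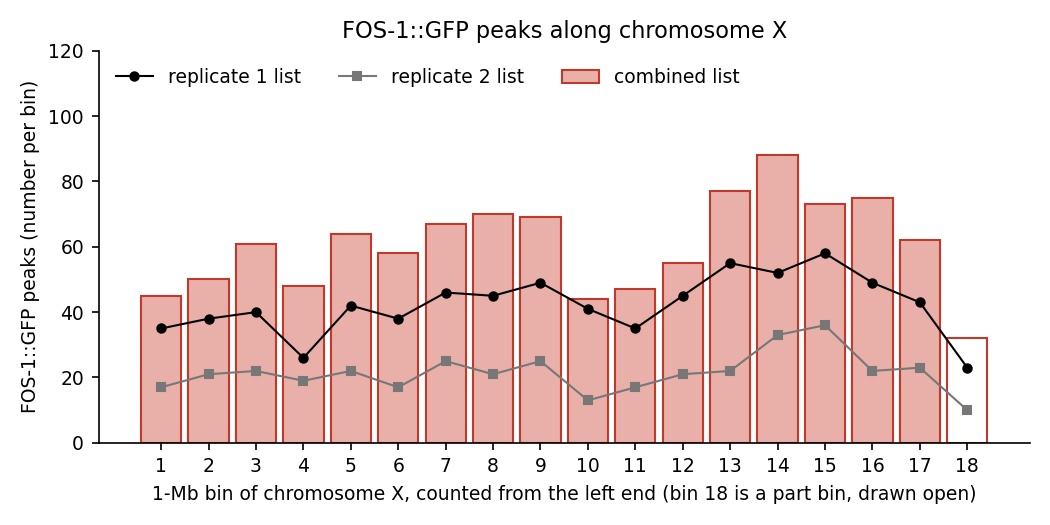
The number of FOS-1::GFP peaks whose midpoint lay in each 1-Mb bin of chromosome X, with bars for the combined list and points for the replicate 1 and replicate 2 lists. Whole bins of the combined list stay between 44 and 88 peaks, with the fullest stretch in bins 13 to 16; the open bar is the part bin at the right end.

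The densest stretch of X lay toward its right end. The 5 densest bins were those of 13 to 14 Mb (88 combined peaks, 52 in replicate 1 and 33 in replicate 2), 12 to 13 Mb (77, 55 and 22), 15 to 16 Mb (75, 49 and 22), 14 to 15 Mb (73, 58 and 36) and 7 to 8 Mb (70, 45 and 21). The first 4 of these adjoin each other. Together the stretch of 12 to 16 Mb held 313 combined peaks, or 78.25 per Mb, against 56.9 per Mb over the other whole bins of X, a stretch chosen after its values were seen. Its peaks were found in both replicate lists about as often as those elsewhere on X (31.9% and 31.4%) and were of like median width (337 and 325.5 bp). Another peak lay within 2000 bp of 50.8% of them, against 39.5% elsewhere. Denser peaks lie closer together, so this share is not independent of the density by which the stretch was chosen. Across the 17 whole bins of X, combined count and neighbour share had a Pearson's r of 0.424. How far density accounts for the higher share was not tested. The bin of 14 to 15 Mb stood out within the stretch, with 45.2% of its peaks in both replicate lists, the highest share of the 17 bins, and 8 peaks with −log10 q above 20.

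The sparsest bins were those of 9 to 10 Mb (44 combined peaks, 41 in replicate 1 and 13 in replicate 2), 0 to 1 Mb (45, 35 and 17) and 10 to 11 Mb (47, 35 and 17). The bin of 9 to 10 Mb was the sparsest in the combined and replicate 2 lists but not in replicate 1, whose 41 peaks made 0.932 for each combined peak, the highest of the 17 bins, where the lowest was 0.542. It also had the lowest share of peaks found in neither replicate list, 15.9%, against a highest share of 45.8% in the bin of 3 to 4 Mb. Across the 17 bins the counts of the 2 replicate lists ran together (Pearson's r 0.713, Spearman's rho 0.782). On single autosomes r was 0.684 to 0.904. The bins of a chromosome share its libraries and both lists share the merged input, so this is a description only.

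X lacked the crowding of peaks into the middle of the chromosome that the autosomes showed. Of the 1085 X peaks, 346 (31.9%, exact 95% interval 29.1 to 34.8) had their midpoint between 33.3% and 66.7% of the length, against 2158 of 5010 autosomal peaks (43.1%, 41.7 to 44.5), while the share over all chromosomes was 41.1%. The difference was −11.2 percentage points (Fisher's exact test, two-sided, p = 7.13e-12, adjusted 4.28e-11 over the 6 shares tested). Single autosomes ran from 39.3% (III) to 50.1% (V), so X lay below every one of them. In the replicate 1 list the shares were 33.6% on X and 44.4% on the autosomes, and in the replicate 2 list 31.1% and 39.9%. The remaining X peaks were not divided evenly between the ends: the left part held 320 (29.5%) and the right part 419 (38.6%). The replicate lists had the same lean, with 28.2% on the left and 38.3% on the right in replicate 1, and 30.1% and 38.9% in replicate 2. On the autosomes the left and right parts held 28.1% and 28.8% of combined peaks. Peaks on one chromosome are neighbours drawn from the same 2 libraries, and the Fisher tests here and below treat them as independent, so their p-values may be too small.

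**Figure D2:**
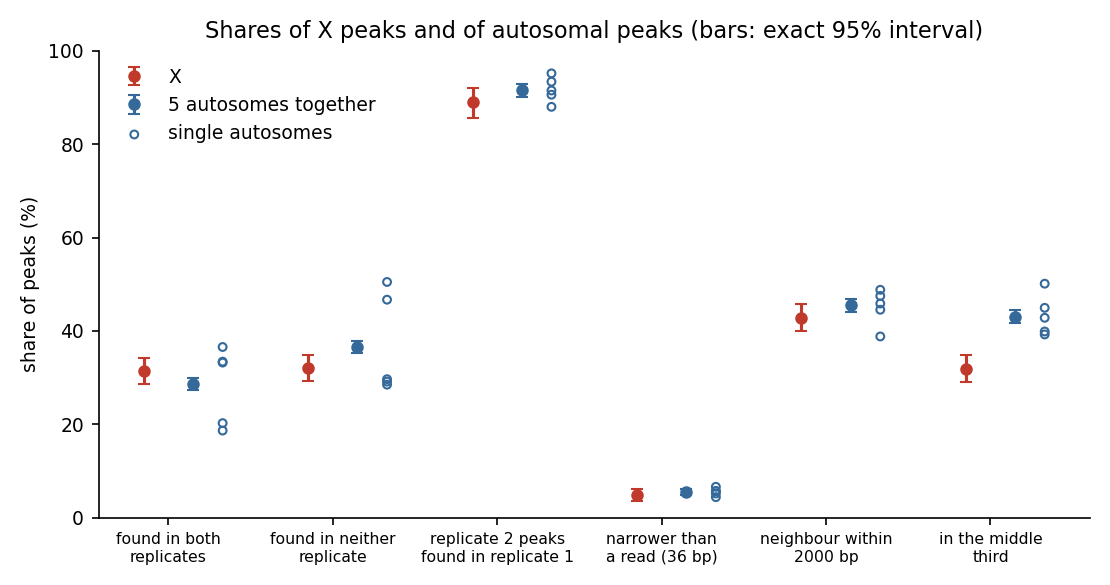
Shares of FOS-1::GFP peaks in percent, of 6 kinds, for X (red), for the 5 autosomes together (filled blue) and for each single autosome (open), with exact 95% intervals. In the middle of the chromosome X, at 31.9%, lies below all 5 autosomes, whereas for the other 5 shares it lies within their range.

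X peaks of the combined list had a wider spread between the quartiles of width than those of any autosome, though the widest peaks were autosomal. X widths ran from 1 to 2948 bp, while the widest peak was 36723 bp on V, 7002 bp on I and 6431 bp on II. No replicate list held an autosomal peak of such width, the widest being 4278 bp in replicate 1 and 4344 bp in replicate 2. The quartiles of X were 199, 326 and 473 bp, and those of the autosomes together 201, 313 and 431 bp. The upper quartile of single autosomes did not exceed 437 bp and their median did not exceed 317 bp, so X had the highest median and upper quartile of the 6 chromosomes in the combined list. In the replicate 1 list the upper quartile was also the highest, 478 bp on X against 410 to 463 bp, whereas the median of 323 bp lay within the autosomal range of 304 to 347 bp. In the replicate 2 list the upper quartile of X was 472 bp, and only I (479 bp) had a higher one. The higher widths lay among the strong peaks. When the combined list was cut into deciles by q, X peaks of the first decile had a median width of 722 bp and autosomal peaks 587 bp. In the second decile the medians were 535 bp on X and 455 bp on the autosomes, and in the third decile 431 and 384 bp. In the last decile X peaks were the narrower, 154 bp against 169.5 bp. X peaks were the wider in 9 of 10 deciles of the combined list, 6 of 10 of replicate 1 and 10 of 10 of replicate 2.

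The widest X peak ran from 3114731 to 3117678 (2948 bp) and was nearly as wide in replicate 1 (2850 bp) as in the combined list, with 2008 bp in replicate 2. The next, from 6251896 to 6254751 (2856 bp), was covered by 2 peaks in each replicate list. The peak from 16929180 to 16931962 (2783 bp) was a single peak of 2799 bp in replicate 1 and 2513 bp in replicate 2. The remaining 2 of the 5 widest differed more between lists. The peak from 6735523 to 6738101 (2579 bp) met 2 replicate 1 peaks and 1 replicate 2 peak, and that from 10765091 to 10767545 (2455 bp) met a replicate 1 peak of only 704 bp and a replicate 2 peak of 945 bp. All 5 had a q in the combined list of 1.09e-31 or lower.

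At the other end, 52 X peaks (4.79%, exact 95% interval 3.60 to 6.24) were narrower than the 36-bp reads, against 5.49% of autosomal peaks (275) and 5.37% over all chromosomes. The difference was within counting error (−0.696 points, Fisher's exact p = 0.413, adjusted 0.413). These narrow X peaks were 1 to 35 bp wide, with a median of 14 bp, and 4 of them spanned 1 bp. None was found in both replicate lists and 41 were in neither. They made up 0.185% of the bases covered on X.

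Peaks called in both replicate lists were the strong and wide ones on X. Overlap of 1 bp or more with both lists was found for 340 X peaks (31.3%, exact 95% interval 28.6 to 34.2), against 1436 autosomal peaks (28.7%), with 29.1% over all chromosomes. The difference of 2.67 points did not pass the threshold (Fisher's exact p = 0.0833, adjusted 0.163). It depended on the autosomes used: against II, III and IV alone it turned round to −3.10 points (Fisher's exact test, adjusted p = 0.114), and it passed without II (3.79 points), without III (4.75) or without IV (3.92), with adjusted p of 0.0303, 0.00433 and 0.0241 in Fisher's exact test. The 340 X peaks had a median width of 489 bp and a median q of 1.16e-10, and held 49.9% of the bases covered on X. The 1436 autosomal peaks found in both lists were narrower, 436 bp, with a median q of 6.31e-12. A further 363 X peaks (33.5%) were found in replicate 1 only, with a median width of 310 bp and a median q of 0.000174. Only 34 (3.13%) were found in replicate 2 only. The 348 X peaks found in neither list (32.1%, 29.3 to 34.9) had a median width of 194 bp and a median q of 0.00331. Since the combined list was called on the reads of the same libraries, these classes are no independent measure of reproducibility.

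The share found in neither replicate list was lower on X than on the autosomes, but this rested on chromosomes I and V. It was 32.1% on X against 36.6% on the autosomes (1832 peaks) and 35.8% over all chromosomes, a difference of −4.49 points (Fisher's exact p = 0.00519, adjusted 0.0156). Among single autosomes it was 28.5% to 29.7% on II, III and IV, 46.7% on I and 50.5% on V. Against II, III and IV alone the difference turned round to 2.97 points and no longer passed (Fisher's exact test, adjusted p = 0.114). X therefore lay nearer to II, III and IV than to I and V, though outside their range. The share found in both lists was 31.3% on X and 33.2% to 36.6% on II, III and IV. X was also nearer to them at equal strength. In the third decile by q 72.6% of X peaks were found in both lists, against 73.1% on II, III and IV and 27.7% on I and V. In the fourth decile the shares were 48.5% on X, 44.9% on II, III and IV and 3.98% on I and V. In the seventh decile 45.9% of X peaks were in neither list, 45.3% of those on II, III and IV and 83.4% of those on I and V. These shares were 30.0%, 22.0% and 56.3% in the sixth decile, and 7.08%, 10.9% and 42.5% in the fifth.

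**Figure D3:**
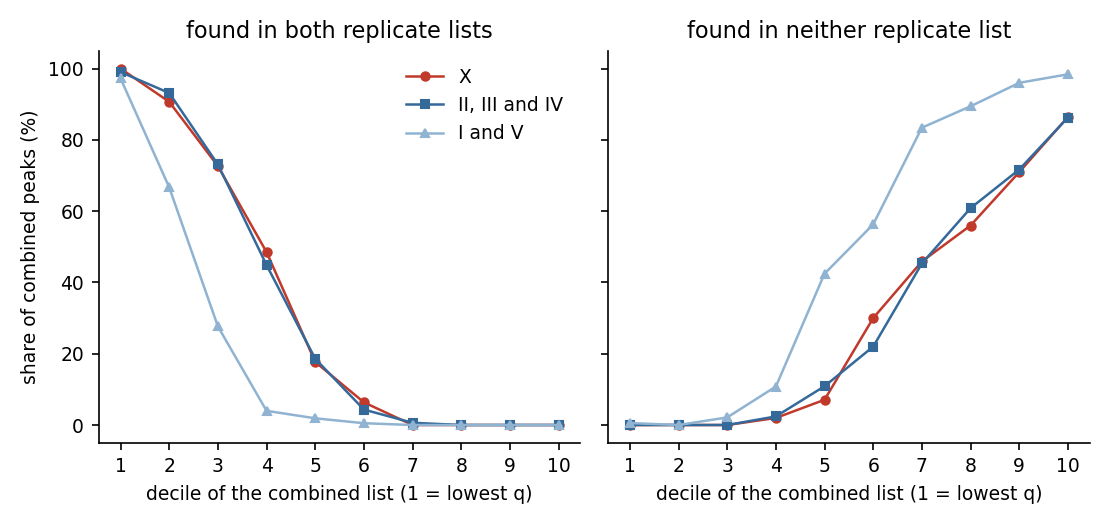
The share of combined peaks found in both replicate lists (left) and in neither (right), in percent, by decile of the whole combined list ranked by q, for X, for II, III and IV together and for I and V together. The X line runs near that of II, III and IV, at 72.6% and 73.1% found in both in the third decile, while I and V stand at 27.7%.

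Recurrence on X followed strength closely. Strength was measured on the merged reads of the libraries that gave the replicate lists, so much of this gradient is built in. In the first decile of the combined list 100% of X peaks were found in both replicate lists, as were 98.4% of the 491 autosomal peaks there. When X peaks alone were ranked by q, the strongest 272 were found in both lists in 90.1% of cases and had a median width of 580 bp. Among the next 271 the share was 33.6% and the width 354 bp, then 1.48% and 256 bp. Of the weakest 271, with a median width of 175 bp, none was found in both lists and 75.3% were in neither. Nearness to another peak did not follow strength in this way: 49.6%, 36.2%, 43.9% and 41.7% of these successive groups had a neighbour within 2000 bp.

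**Figure D4:**
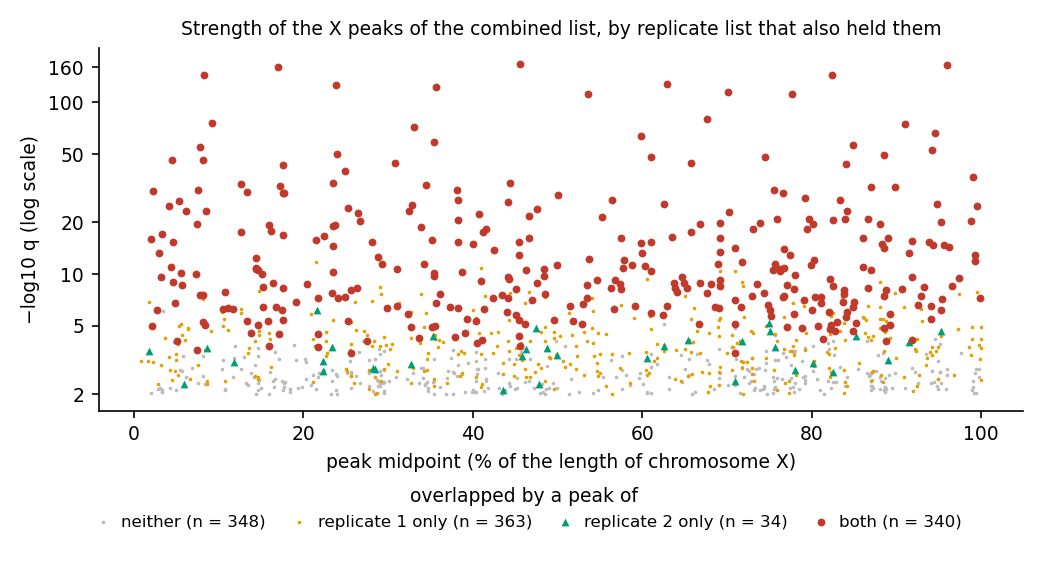
Strength of each of the 1085 X peaks, as −log10 q on a log scale, against its midpoint in percent of the length of X, marked by the replicate lists that also held it. Peaks found in both lists (340) fill the upper part along the whole chromosome, and those in neither list (348) lie at the bottom.

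The replicate lists placed their common X peaks at nearly the same spots. Of the 386 replicate 2 peaks on X, 344 (89.1%, exact 95% interval 85.6 to 92.0) overlapped a replicate 1 peak, against 91.6% of 1601 on the autosomes and 91.1% over all chromosomes, a difference of −2.45 points that did not pass (Fisher's exact p = 0.136, adjusted 0.163). In the other direction 343 of 760 replicate 1 peaks on X (45.1%) overlapped a replicate 2 peak, against 44.2% on the autosomes. The 347 overlapping pairs on X had midpoints a median of 33.5 bp apart (quartiles 13.5 and 68.25), against 29.5 bp on the autosomes. Midpoints lay within 50 bp in 67.7% of X pairs and 67.8% of autosomal pairs. Replicate 1 had the lower q in 91.1% of X pairs and 90.3% of autosomal pairs. The ranks of −log10 q were more alike between replicates on X (Spearman's rho 0.836) than on the autosomes together (0.717) or singly (0.644 to 0.747). That is a description over pairs which share the merged input and the 2 ChIP libraries.

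The tail of very strong peaks on X was long in the combined list although its typical peak was not strong. The highest values of the combined list were nevertheless autosomal, 210 on II and 188 on I in −log10 q, against 167 on X. In the replicate 1 list the highest were 137 on II and 135 on X, and in replicate 2 80.8 on X and 73.9 on II. The median −log10 q was 3.78 on X and 4.03 on the autosomes. A value above 10 was held by 173 X peaks (15.9%) and 893 autosomal peaks (17.8%). A value above 20 was held by 80 (7.37%) and 294 (5.87%), and a value above 50 by 22 (2.03%) and 44 (0.878%). Single autosomes had 5 to 13 peaks above 50. Above 100 there were 11 peaks on X (1.01%) and 5 on all autosomes together (0.0998%). In the replicate 1 list 15 X peaks (1.97%) and 12 autosomal peaks (0.367%) exceeded 50, and 6 X peaks (0.789%) and 1 autosomal peak (0.0306%) exceeded 100. In the replicate 2 list 3 X peaks (0.777%) and 1 autosomal peak (0.0625%) exceeded 50. The lower X share above 10 was seen in the combined list only. In the replicate 1 list a value above 10 was held by 14.3% of X peaks and 11.7% of autosomal peaks, and in the replicate 2 list by 12.7% and 8.06%, with X above each single autosome in both. Every q is the authors' own and ranks peaks within a list.

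The X peak with the lowest q ran from 8035897 to 8036965, with −log10 q of 167 in the combined list, 135 in replicate 1 and 50.4 in replicate 2. The second, from 16929180 to 16931962, had 166, 109 and 55.0 in the same lists. The third, from 2996335 to 2997559, had 161, 131 and 46.9. Among the X peaks they ranked 1, 4 and 2 in replicate 1 and 3, 2 and 5 in replicate 2. The peak from 14525269 to 14526638 had 145, 113 and 47.7. That from 1453795 to 1455006 had 144, 104 and 80.8, and its replicate 2 value was the highest of any X peak in that list by a wide margin. It was the only one of the strongest 11 with a replicate 2 value above 55.0.

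The other 6 of the strongest 11 were closer to each other. The peak from 11093673 to 11094486 had −log10 q of 128 in the combined list, 106 in replicate 1 and 41.8 in replicate 2. For that from 4208504 to 4209761 the values were 126, 88.7 and 41.7, and for that from 6296098 to 6297035 they were 122, 94.6 and 39.3. Their replicate 2 values lay close together, near those of the next pair. The peak from 12362688 to 12363581 had 115, 87.4 and 40.4, and that from 13700445 to 13701126 had 112, 87.9 and 40.0. The eleventh, from 9465320 to 9466250, had 111, 95.1 and 28.5, the lowest replicate 2 value of the 11. All 11 ranked among the first 11 X peaks of replicate 1 and among the first 12 of replicate 2.

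A step followed. The twelfth X peak, from 11937044 to 11937813, had a −log10 q of 80.2 in the combined list, 31.0 below the eleventh, while no other step among ranks 2 to 25 exceeded 16.5. Ranks 12 to 25 descended to 47.9. In order of strength, the 13 peaks after the twelfth began at X 1626768, 16056144, 5840734, 16681721, 10568181, 6251896, 14975266, 1389258, 16611265, 4221955, 15606716, 10765091 and 13143563. Of all 25 named peaks, 23 were among the first 25 X peaks of replicate 1 and 23 among those of replicate 2. The exceptions in replicate 1 were the peaks that began at 6251896 and 13143563 (ranks 31 and 32), both of which met 2 peaks in each replicate list. In replicate 2 they were those that began at 6251896 and 1389258 (ranks 43 and 33). All 25 had a lower q in replicate 1 than in replicate 2.

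**Figure D5:**
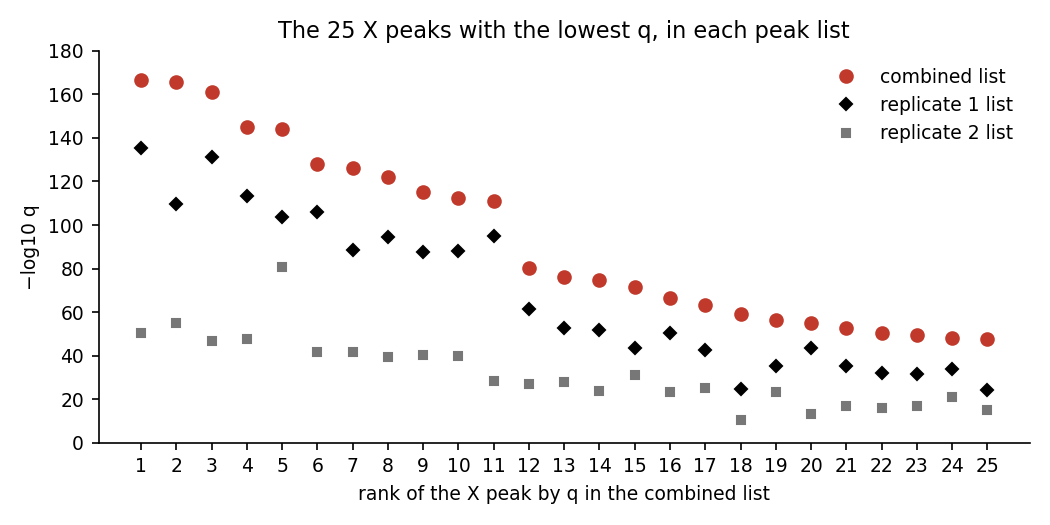
−log10 q of the 25 X peaks with the lowest q in the combined list, by rank, in the combined, replicate 1 and replicate 2 lists. The first 11 stand above the rest, with a step from 111 to 80.2 between ranks 11 and 12 of the combined list, and the fifth has the highest replicate 2 value, 80.8.

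The 25 strongest X peaks were wide and scattered, and most met 1 peak in each replicate list. Their widths ran from 609 to 2856 bp with a median of 1065 bp, and 23 of them had 1 counterpart in each replicate list. Midpoints of the counterparts differed by a median of 32 bp. The 25 lay in 14 bins, and neighbours among them were 0.0136 to 1.74 Mb apart. The nearest other X peak of any strength was a median of 3351 bp away, close to the 2953 bp of all X peaks. The 25 strongest autosomal peaks had a median width of 1524 bp and a nearest peak at 1013 bp. Within 2000 bp another peak was found for 44% of the 25 on X and 68% of the 25 on the autosomes. For the strongest 100 the shares were 50% on X and 68% on the autosomes, with median widths of 778 and 946 bp. Of the strongest 100, 25 on X and 45 on the autosomes lay in the middle of the chromosome. These sets were chosen by q, and with equal numbers from chromosomes of unequal total length they are given without a test. The autosomal sets were the stronger, with a median −log10 q of 80.8 against 76.1 on X for the 25. For the 100 it was 47.8 against 27.4 on X. Widths and distances in these sets are therefore not compared at equal strength. By decile of q, X peaks were the wider in 9 of 10 deciles of the combined list.

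X peaks sat beside other peaks about as often as autosomal peaks did. Another peak lay within 2000 bp, from end to start, of 465 X peaks (42.9%, exact 95% interval 39.9 to 45.9), against 45.5% of autosomal peaks (2278) and 45.0% over all chromosomes. The difference of −2.61 points did not pass (Fisher's exact p = 0.122, adjusted 0.163), and single autosomes ran from 38.8% (V) to 48.8% (I). Joining X peaks over gaps of up to 2000 bp gave 788 clusters, of which 620 were single peaks, 107 held 2 peaks, 32 held 3 and 29 held 4 or more. The share of peaks in clusters of 4 or more was 14.3% on X and 13.7% on the autosomes. Gaps between neighbours had a median of 7114 bp on X and 6658 bp on the autosomes.

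The largest clusters of X held 9, 9 and 8 peaks. That from 2590985 to 2601786 spanned 10.8 kb with 9 peaks that covered 29.2% of it, of which 2 were in both replicate lists, 3 in replicate 1 only and 4 in neither. That from 12199387 to 12210958 spanned 11.6 kb with 9 peaks, 5 of them in both lists and 1 in neither, and that from 4136786 to 4148372 spanned 11.6 kb with 8 peaks, also 5 in both and 1 in neither. Peaks covered 53.4% of the second cluster and 57.5% of the third, which also held the lowest q of the clusters, 1.08e-34. None of the clusters held one of the strongest 25 peaks. Whether one long site was split by the caller or several sites stood side by side cannot be told apart from the lists.

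The longest stretches of X without a combined peak were 210 kb (1627479 to 1837778), 182 kb (5514628 to 5696177) and 170 kb (17222143 to 17392128). The first began at the end of the thirteenth strongest X peak, and neither it nor the third held a peak of a replicate list. The second held 1 replicate 1 peak. The longest stretch on an autosome was 540 kb, on V. On X 13 of 1084 gaps exceeded 100 kb, and on the autosomes 81 of 5005. Single autosomes had from 6 such gaps (I and III) to 38 (V).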

How the data were processed

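ChIP and input libraries of FOS-1::GFP L1 larvae were grouped by the labels. Peaks were called by the authors with PeakSeq on 36-bp reads aligned to WS180 and then lifted over to WS220, per the file headers and the deposited sample table. The aligner and the version of PeakSeq are not given in the sources used here. The replicate lists were called on 1 ChIP library each, and the sample table sets the merged input against all 3 lists. The deposited q-value of each peak, 0.01 or lower throughout, was used to describe, rank or filter peaks within a list, and −log10 q was computed from it. Read counts per library are whole numbers in the deposited sample table. No read-level signal was used.

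All X lines of the combined list were taken. Overlap was 1 bp or more, chromosome length was the end of the last peak in any list, and bins were counted by peak midpoints from position 1. Shares on X and on the 5 autosomes were compared by two-sided Fisher's exact tests with Benjamini-Hochberg adjustment over 6 tests (threshold 0.05) and exact (Clopper-Pearson) 95% intervals, which cover counting error only. Peak count, density ratio, median width and variance-to-mean ratio have no test. Alternatives changed the overlap rule, the peaks kept, the width and distance limits, the bins, the autosomes or the list. In a single replicate list only the shares that need no second list were tested, and the adjustment ran over those alone. The code was tested on simulated intervals with known answers.

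Regions named are the 25 X peaks with the lowest q, the 5 widest, the 5 densest and 3 sparsest bins, the 3 largest clusters and the 3 longest gaps. Members, shares and this rule were chosen with earlier results of these data known. The gene table at hand is of another build (WBcel235) and gave only the chromosomes of fos-1 and unc-119, so genes and motifs at peaks and sequences were not analysed here. Computations ran in Python 3.11.15 with scipy 1.17.1, pandas 2.3.3 and numpy 2.4.6, and figures were drawn with matplotlib 3.10.9.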

Additional observations from a re-analysis of the deposited data

How the results depend on the processing

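Of 90 alternative values, 62 kept their direction and side of the threshold or moved little. The lower share of X peaks in the middle of the chromosome kept its direction and its call under all 12 alternatives run, from −8.50 points with neighbours joined to −12.4 points in the lowest 50% of each list by q, and stood at −10.9 in the replicate 1 list and −8.76 in the replicate 2 list (Fisher's exact test, adjusted p between 1.94e-12 and 0.00480).

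The shares of peaks in both or neither replicate list depended on the autosomes they were set against. With I and V left out the difference in the share found in both turned to −3.10 points and that in neither to 2.97 points. Leaving out II, III or IV took the share found in both past the threshold, at 3.79, 4.75 and 3.92 points. The share found in neither no longer passed without I (−1.53), without V (−1.79) or in the lowest 50% of each list by q (−4.15). It was −3.80 points without peaks narrower than a read and −4.30 with neighbours joined (Fisher's exact test, adjusted p 0.0599 and 0.0580). There the adjustment also counted a share that the setting itself emptied, of narrow peaks or of neighbours. Whether the call was lost in these settings is therefore not decided. The share of replicate 2 peaks found in replicate 1 turned to 2.00 points in the lowest 50% of each list by q and passed the threshold without II (−3.57). In single replicate lists the difference in narrow peaks ran from −1.47 to 0.127 points and that in neighbours from −2.54 to 0.717 points. The neighbour difference was largest in the lowest 50% of each list by q (−5.11 points) and without V (−3.90). Fisher's exact test gave adjusted p of 0.0729 and 0.0662 there. None of these differences in narrow peaks or neighbours passed. The neighbour difference kept its direction in 11 of 12 alternatives.

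The density ratio was 0.934 without I and V, 1.07 without I, 1.06 without III, 0.903 without V and 1.09 to 1.13 in single lists. X held 386 to 760 peaks in single lists, by construction. The median width was 338 bp without peaks narrower than a read. The variance-to-mean ratio of X was 2.28 without these peaks, 1.45 with neighbours joined, 1.42 to 1.47 in single lists, 2.73 in 0.5-Mb bins and 4.73 in 2-Mb bins. X stayed below every autosome under these settings, the nearest being IV, with 4.15 without narrow peaks, 1.79 joined, 1.57 to 3.19 in single lists, 2.75 in 0.5-Mb bins and 4.97 in 2-Mb bins. Apart from fewer peaks or chromosomes entering by construction, the cause of these shifts was not tested.

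No paired analysis was possible because each peak list already sets ChIP against input, and the tests compare chromosomes within a list. Replicate 2 had fewer uniquely mapped reads (2961912, 49.3% of its reads) than replicate 1 (3763795, 59.7%) and fewer peaks, and the part of depth in this was not tested. Chromosome ends without peaks are missing from the lengths.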

Other observations

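A few X peaks were called in a single library and not on the merged reads. Of the 760 replicate 1 peaks on X, 45 (5.92%) overlapped no combined peak, against 4.98% of 3272 on the autosomes, and their median q was 0.00511. Of the 386 replicate 2 peaks on X, 6 (1.55%) overlapped none, against 1.06% of 1601 on the autosomes, with a median q of 0.00779. These lay near the limit of 0.01 that all deposited peaks meet. Conversely, 12 combined X peaks (1.11%) met 2 or more replicate 1 peaks and 6 (0.553%) met 2 or more replicate 2 peaks, against 0.878% and 0.599% of autosomal peaks. No test was made of these shares.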
